A study of Mus musculus with 9 samples.

Results

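Pyroptosis and necroptosis are forms of lytic cell death, and 10 genes that carry them out or set them off were followed here among the 29288 genes counted in crypt epithelium of the mouse small intestine. The genes were picked by name as Casp1, Casp4, Gsdmd, Gsdmc2, Gsdmc4, Aim2, Nlrp6, Ripk3, Mlkl and Zbp1, and each was found by its Ensembl identifier. All 10 passed the filter on low counts and entered the test.

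In pyroptosis, sensors of microbial products or misplaced nucleic acid activate inflammatory caspases, which cut gasdermins so that the freed fragments open pores in the plasma membrane. In necroptosis, the kinase RIPK3 phosphorylates MLKL, which then moves to the membrane and ruptures it; RIPK3 is engaged by RIPK1 or by the nucleic acid sensor ZBP1. In the intestinal epithelium, these routes are known for the loss of infected or damaged cells and for the inflammation that follows.

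The libraries came from female WT C57BL/6J mice, which per the study's methods were 7 to 10 weeks old. Mice received an intraperitoneal injection of 2 µg α-galactosylceramide (αGalCer), a glycolipid that CD1d presents to natural killer T (NKT) cells, or PBS. Groups were control (PBS, 18 h, n = 3), 18h-αGal (αGalCer, 18 h, n = 3) and 72h-αGal (αGalCer, 72 h, n = 3), with 1 mouse per library. Crypt cells of the proximal small intestine were sorted as live EpCAM+, Ter119-, CD31-, CD45- cells, so epithelial cell types of the crypt were pooled in a library. The comparison at 18 h asks what NKT cell activation changes in these genes, and that at 72 h whether a change persists. PBS mice were sampled at 18 h only, so at 72 h the effects of αGalCer and of the sampling time cannot be told apart.

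Total counts per library ran from 8887861 (control replicate 3) to 32722293 (control replicate 1), a 3.68-fold range. Epithelial markers summed to 4111 to 5226 CPM (counts scaled to the same total per library) over the 9 libraries. Lymphocyte markers summed to 3.38 to 6.37 CPM in control, 3.34 to 8.77 CPM in 18h-αGal and 8.30 to 16.8 CPM in 72h-αGal mice, with 12 of 16 markers measured and Nkg7 at 0 in 8 libraries. Myeloid sums were 27.9 to 36.3, 27.2 to 44.6 and 41.7 to 60.6 CPM in the same order (11 of 12 markers measured), and stromal and endothelial sums were 4.37 to 5.51, 1.48 to 2.05 and 2.14 to 2.89 CPM (9 of 9 measured). Among crypt cell types, stem cell markers summed to 2247 to 4994 CPM in control, 738 to 2295 CPM in 18h-αGal and 3208 to 5367 CPM in 72h-αGal mice. Tuft cell markers summed to 119 to 249, 238 to 417 and 142 to 243 CPM, and enteroendocrine markers to 435 to 524, 586 to 892 and 209.7 to 295 CPM. Enterocyte sums (8650 to 20738, 10710 to 16344 and 5753 to 10650 CPM), goblet sums (11376 to 12553, 5992 to 17841 and 11216 to 19493 CPM) and Paneth sums (845 to 4064, 1841 to 3963 and 1414 to 3624 CPM) overlapped between control and each αGalCer group. The stem and tuft cell sums also overlapped between control and each αGalCer group. For the stem sums at 18 h this rested on control replicate 3 (2247 CPM) and 18h-αGal replicate 1 (2295 CPM). At 18 h against control, 9 of 9 stem markers had log2 fold changes below 0 (median -1.01). All 8 tested tuft markers were above 0 (median 0.95). Enteroendocrine sums did not overlap between control and either αGalCer group. Between 18h-αGal and 72h-αGal mice, the enterocyte, stem cell and enteroendocrine sums did not overlap. The part of these markers in the results was not tested, and in bulk libraries fewer cells of a type and less RNA per cell cannot be told apart.

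Promoter windows of 300 bases (from 250 before to 50 from the RefSeq transcript start, build GRCm38.p6) were matched for 6 of the 10 genes. They were searched on both strands for TTCNNNGAA, the letters of a gamma-activated site, and for GAAANNGAA, the core of an interferon-stimulated response element. These motifs can overlap each other and were present in 8.30% and 8.56% of 32851 promoters, respectively. The windows of Ripk3 (minus strand, chr14:55788808-55789107) and Mlkl (minus strand, chr8:111338156-111338455) are shown because these necroptosis genes rose at 18 h, and that of Casp4 (plus strand, chr9:5308599-5308898) because its call between 18 h and 72 h had the opposite direction. Capitals mark the only match in the 6 genes, GAAAGGGAA in Ripk3, which began at base 15 after the start. The Mlkl window lies wholly inside the gene (chr8:111311255-111338479). The Aim2 window (chr1:173420354-173420653) also lies inside its gene, which begins at chr1:173349547. Other starts of Mlkl and Aim2 were not searched. A match is a description of the letters and not evidence of binding.
Ripk3: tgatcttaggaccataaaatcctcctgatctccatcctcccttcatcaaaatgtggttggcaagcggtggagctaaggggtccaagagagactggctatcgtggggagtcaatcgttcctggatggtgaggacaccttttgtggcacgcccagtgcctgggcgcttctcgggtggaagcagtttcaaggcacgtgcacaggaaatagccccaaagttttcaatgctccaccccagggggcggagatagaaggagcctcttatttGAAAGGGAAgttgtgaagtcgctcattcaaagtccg
Mlkl: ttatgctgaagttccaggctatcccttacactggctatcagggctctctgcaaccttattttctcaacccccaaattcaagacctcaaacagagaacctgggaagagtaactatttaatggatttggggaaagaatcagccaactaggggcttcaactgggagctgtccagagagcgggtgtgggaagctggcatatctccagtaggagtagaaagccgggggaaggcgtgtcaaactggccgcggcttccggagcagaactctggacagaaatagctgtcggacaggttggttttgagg
Casp4: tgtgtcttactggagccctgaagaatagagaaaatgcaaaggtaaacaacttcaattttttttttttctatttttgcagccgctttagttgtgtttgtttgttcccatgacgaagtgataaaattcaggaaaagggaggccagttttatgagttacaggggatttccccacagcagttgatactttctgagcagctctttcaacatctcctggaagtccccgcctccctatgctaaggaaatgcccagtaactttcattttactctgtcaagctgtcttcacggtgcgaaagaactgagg

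Levels per length, as CPM per kilobase of transcript, spanned a wide range in control mice. Nlrp6 (129 ± 14.8, SD, n = 3) and Casp1 (67.1 ± 6.93) were highest, followed by Gsdmd (31.5 ± 12.9), Ripk3 (19.5 ± 2.11), Casp4 (15.5 ± 5.27), Gsdmc4 (14.4 ± 2.93), Gsdmc2 (8.42 ± 1.37), Zbp1 (8.31 ± 7.30), Mlkl (3.25 ± 0.524) and Aim2 (0.764 ± 0.380). In this order the replicates of Ripk3 and Casp4, Casp4 and Gsdmc4, Gsdmc2 and Zbp1, and Zbp1 and Mlkl overlapped, whereas the other neighbours did not. Every control mouse thus had more Nlrp6 and Casp1 than Mlkl transcript per length. At 18 h, Gsdmc4 (65.7 ± 15.1) and Zbp1 (58.4 ± 2.90) stood at places 3 and 4, behind Nlrp6 (144 ± 15.9) and Casp1 (79.1 ± 8.0), and Casp1 overlapped with Gsdmc4 and Gsdmc4 with Zbp1. Overlap was also seen between the neighbours Ripk3 (47.7 ± 6.93) and Gsdmc2 (34.9 ± 11.2), Gsdmc2 and Gsdmd (23.5 ± 8.57), and Casp4 (8.36 ± 1.40) and Mlkl. Mlkl (7.16 ± 1.73) and Aim2 (0.775 ± 0.286) remained the lowest. At 72 h, Nlrp6 (112 ± 12.1), Casp1 (56.9 ± 4.87) and Ripk3 (26.8 ± 1.34) led without overlap between them. From Ripk3 down to Mlkl (3.72 ± 0.478), through Gsdmd, Casp4, Gsdmc4, Gsdmc2 and Zbp1, each gene overlapped with the next, and Aim2 (0.639 ± 0.736) was again last.

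**Figure D1:**
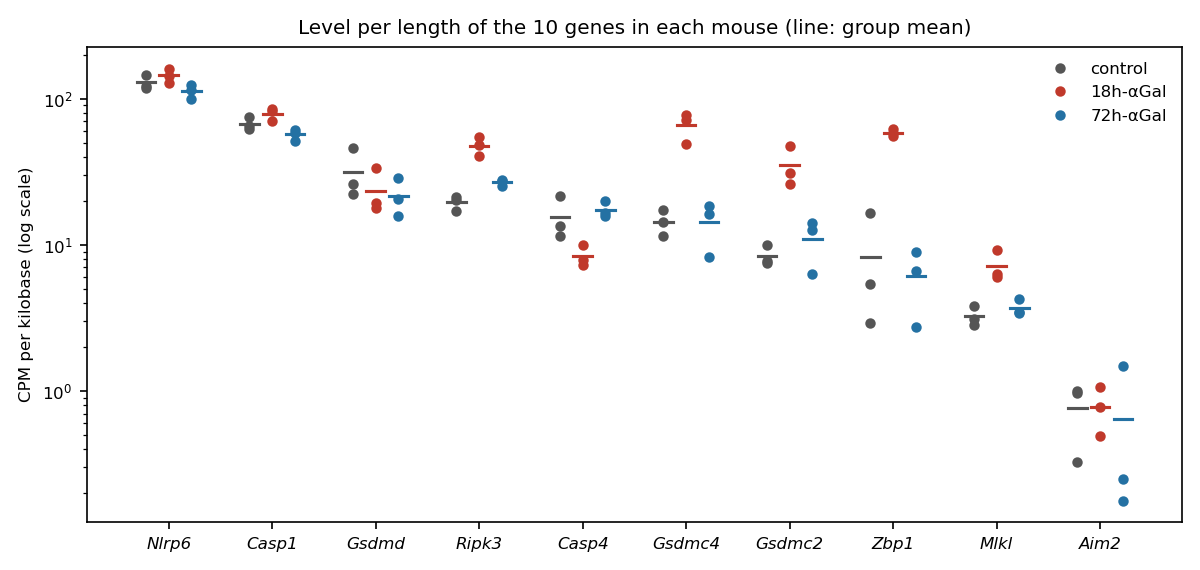
Level per length (CPM per kilobase, log scale) of the 10 genes in control, 18h-αGal and 72h-αGal mice, ordered by the control mean. Points are single mice (n = 3 per group) and lines are group means. Zbp1, Gsdmc4, Gsdmc2, Ripk3 and Mlkl sit higher in all 18h-αGal mice than in the other mice, and Aim2 is lowest in each group.

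At 18 h, the necroptosis kinase and pore former and both gasdermin C genes were raised, and 0 of the 10 genes were called lower by edgeR with the filter on low counts. Casp4 was called lower by DESeq2, which called 6 genes in all (5 higher), and by edgeR without that filter or without control replicate 2. Gsdmc2 was 4.22-fold, Gsdmc4 4.68-fold, Ripk3 2.50-fold and Mlkl 2.26-fold higher than in control mice. These were 4 of 10 genes, against 5.96% of all 18933 genes that were called (Benjamini-Hochberg adjusted p under 0.05, edgeR) and 3.27% called higher. The median log2 fold change of the 10 genes was 0.72, against -0.03 for all genes. Groups did not overlap for 6 of the 10 genes, against 23.8% of all genes.

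At 72 h, 0 of the 10 genes were called against control by edgeR, against 0.0264% of all genes, and DESeq2 also called 0. At an unadjusted p under 0.05 the edgeR count was 1 of 10, Ripk3, against 1125 of all 18933 genes. The median log2 fold change was -0.15, against 0.00 for all genes, and groups were separate for 1 of 10 genes, against 12.7% of all genes. Between the αGalCer groups, 72h-αGal mice had 6 of 10 genes lower (Casp1, Gsdmc2, Gsdmc4, Ripk3, Mlkl and Zbp1) and 1 higher (Casp4) than 18h-αGal mice, against 10.2% of all genes called, 6.04% called lower and 4.18% called higher. Groups did not overlap for 8 of 10 genes, against 32.8% of all genes. The 3 comparisons share groups, so they are not independent of each other.

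**Figure D2:**
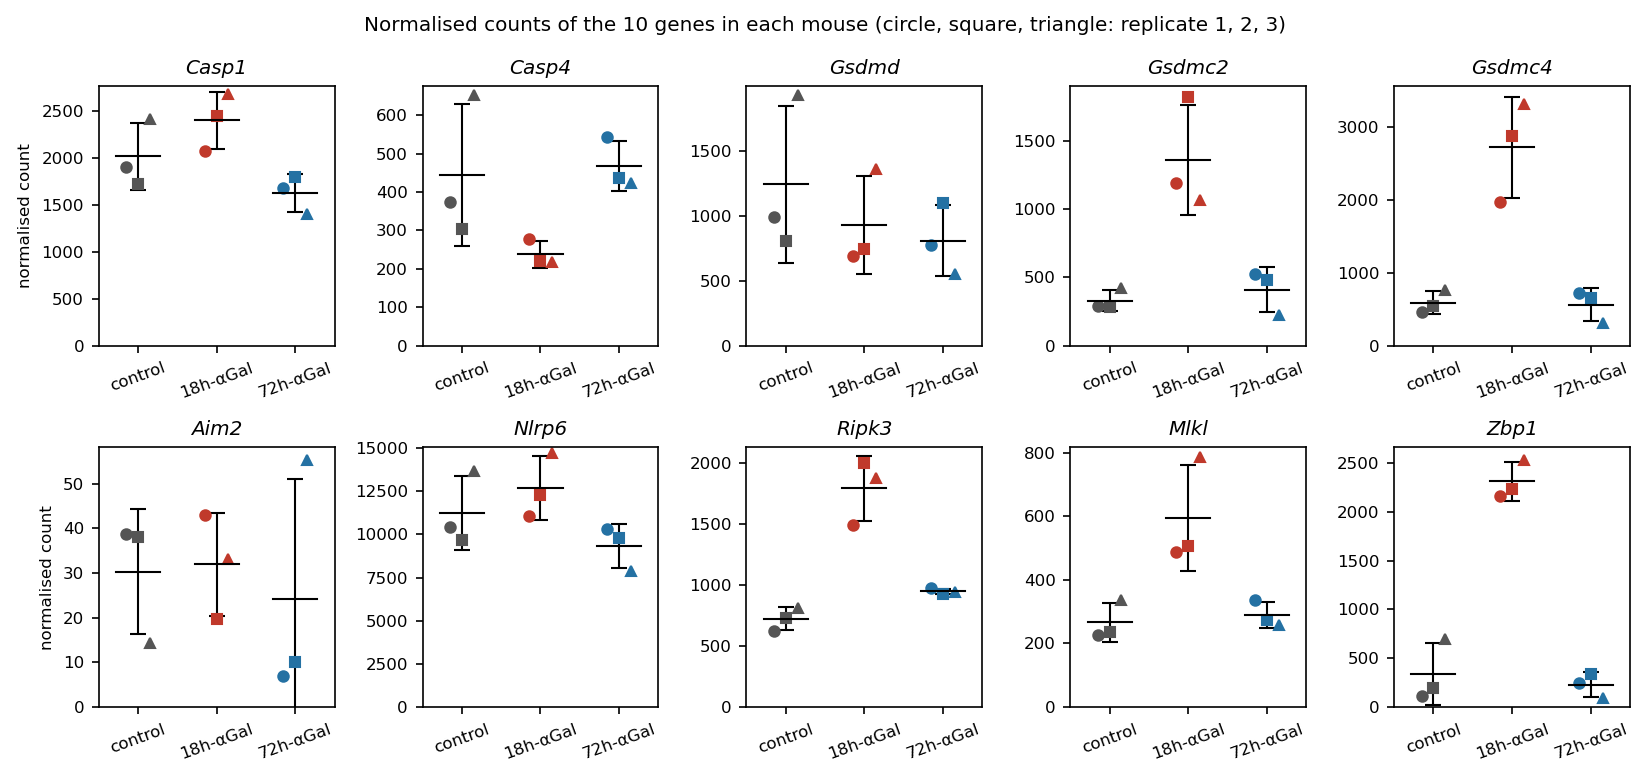
Normalised counts of the 10 genes in each mouse by group, with a linear axis for each gene. Symbols give replicates 1 to 3, and horizontal lines with bars give the group mean and SD (n = 3). All 18h-αGal mice lie above all control and 72h-αGal mice for Gsdmc2, Gsdmc4, Ripk3, Mlkl and Zbp1, and below them for Casp4.

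**Figure D3:**
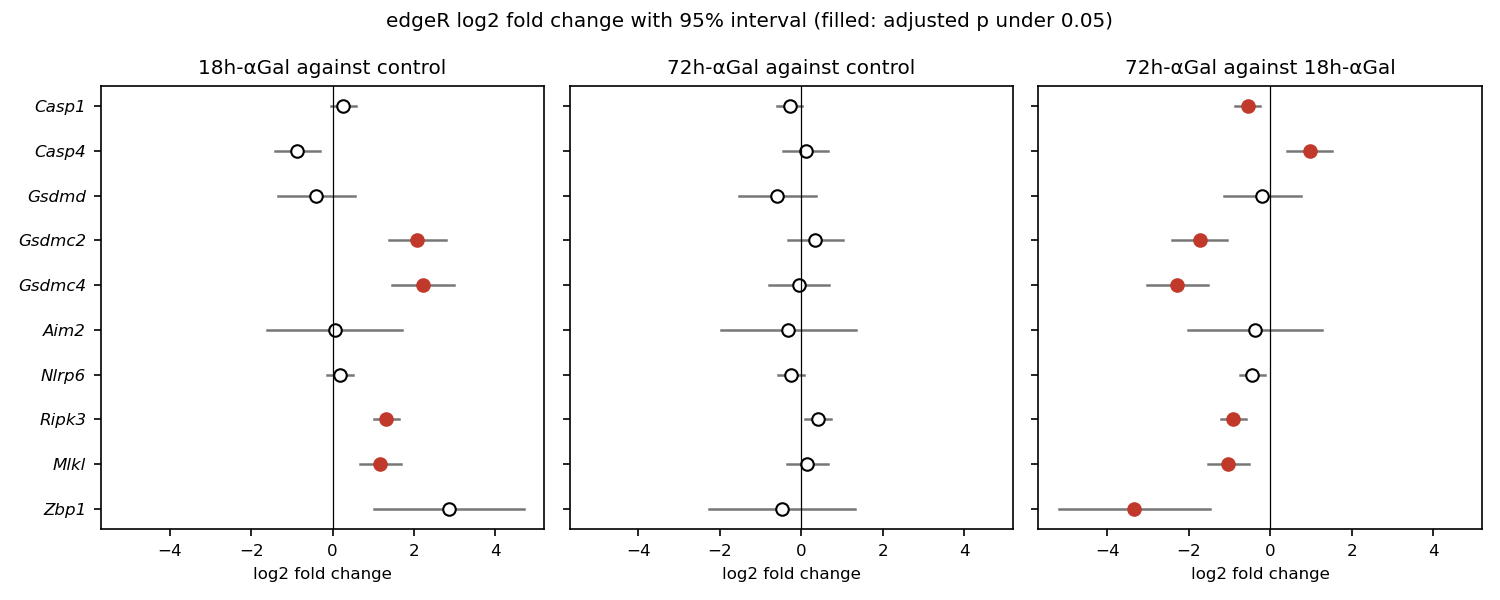
Log2 fold changes of the 10 genes in the 3 comparisons, with the 95% interval as a line. Filled points passed the edgeR test (4 genes at 18 h, 0 at 72 h, and 7 between 72 h and 18 h). The interval of Zbp1 at 18 h, 1.03 to 4.71, lies above 0 although its adjusted p missed the threshold.

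Ripk3, the kinase that carries the necroptosis signal to MLKL, is encoded on the minus strand of chromosome 14 (chr14:55784995-55788857, ENSMUSG00000022221). Its normalised counts were 623, 732 and 813 in control, 1492, 1997 and 1879 in 18h-αGal and 972, 926 and 943 in 72h-αGal mice. Every 18h-αGal mouse was above every other mouse, and the 72h-αGal mice lay between the other groups with no overlap. The log2 fold change at 18 h was 1.32 ± 0.15 (SE), with an edgeR adjusted p of 0.000154. At 72 h it was 0.41 ± 0.14, a 1.33-fold difference with an edgeR adjusted p of 0.810 that did not pass the test, and the interval ran from 0.10 to 0.72. From 18 h to 72 h, Ripk3 fell by 0.91 ± 0.14 on the log2 scale, with an edgeR adjusted p of 0.00164. The rise and the fall were called in all 18 alternative analyses.

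Mlkl, the membrane-rupturing protein that RIPK3 phosphorylates, lies on the minus strand of chromosome 8 (chr8:111311255-111338479, ENSMUSG00000012519). Normalised counts were 226, 237 and 338 in control, 489, 508 and 788 in 18h-αGal and 336, 274 and 259.8 in 72h-αGal mice. The 18h-αGal group was above both other groups without overlap, and the 72h-αGal mice overlapped with control. Mlkl rose at 18 h by a log2 fold change of 1.18 ± 0.24 (edgeR adjusted p = 0.00905). Without control replicate 1 the change was 1.07 and the edgeR adjusted p was 0.0571, while 17 of 18 alternatives kept the call. At 72 h the log2 fold change from control was 0.15 ± 0.23 (edgeR adjusted p = 0.970), with an interval of -0.35 to 0.65. Mlkl fell by 1.03 ± 0.23 on the log2 scale from 18 h to 72 h (edgeR adjusted p = 0.0119); without 18h-αGal replicate 3 (-0.78, adjusted p = 0.0561) or 72h-αGal replicate 3 (-0.96, adjusted p = 0.0642) this edgeR call was lost. Of the 100-base words in its transcripts, 10.5% also occurred in other genes, most of them in Gm63800, a lncRNA on the opposite strand.

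Zbp1, a sensor of Z-form nucleic acid that engages RIPK3, lies on the minus strand of chromosome 2 (chr2:173206612-173218959, ENSMUSG00000027514). Its normalised counts were 112, 197 and 701 in control, 2165, 2237 and 2535 in 18h-αGal and 250.2, 343 and 97.1 in 72h-αGal mice. All 18h-αGal mice were above all others, and control replicate 3 was well above the other controls. The log2 fold change at 18 h was 2.87 ± 0.77, a 7.30-fold higher level, and the edgeR adjusted p of 0.0883 did not pass the test. The adjusted p ranged from 0.00502 to 0.226 over the 18 alternatives, and 3 of them called Zbp1 higher. These were the fit without control replicate 3 (log2 fold change 3.92, edgeR adjusted p = 0.00963), DESeq2 (2.78, adjusted p = 0.00502) and the edgeR fit without robust moderation (2.87, adjusted p = 0.0113). Between 18 h and 72 h, Zbp1 fell by 3.33 ± 0.77 on the log2 scale, a 10.1-fold difference with an edgeR adjusted p of 0.0447. This call was lost in 9 of 18 alternatives, with values of -3.75 to -2.96 over all 18. They comprised the fit with no filter on low counts, the replicate block, and the fits without control replicate 2 (-3.33), 18h-αGal replicate 1 (-3.37), 2 (-3.35) or 3 (-3.26), or 72h-αGal replicate 1 (-3.40), 2 (-3.75) or 3 (-2.96), with edgeR adjusted p values of 0.0633 to 0.143. At 72 h against control the log2 fold change was -0.47 ± 0.75 (edgeR adjusted p = 0.972), and without control replicate 3 it was 0.58.

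Control replicate 3 held the highest count of the control group for 9 of the 10 genes, whereas it was highest for 36.8% of all genes tested. It had the lowest total count, the highest enterocyte marker sum (20738 CPM) and the lowest stem cell marker sum of the controls (2247 CPM). In the same way, 72h-αGal replicate 3 was lowest of its group for 8 of the 10 genes, against 37.2% of all genes. It had the lowest enterocyte sum (5753 CPM) and the highest stem cell sum (5367 CPM) of its group. The part of cell composition in these differences between replicates was not tested.

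Gsdmc2 and Gsdmc4, gasdermins of a gene cluster that is expressed in the intestinal epithelium, both lie on the minus strand of chromosome 15 (chr15:63824328-63845193, ENSMUSG00000056293, and chr15:63891140-63912319, ENSMUSG00000055748). Gsdmc2 counts were 287, 280.0 and 418 in control, 1195, 1824 and 1068 in 18h-αGal and 527, 480.1 and 224 in 72h-αGal mice. Gsdmc4 counts were 459, 549 and 763 in control, 1972, 2878 and 3324 in 18h-αGal and 719, 659 and 305 in 72h-αGal mice. For both genes the 18h-αGal mice stood above all others, and control and 72h-αGal mice overlapped. At 18 h the log2 fold change was 2.08 ± 0.32 for Gsdmc2 (edgeR adjusted p = 0.00372) and 2.23 ± 0.34 for Gsdmc4 (edgeR adjusted p = 0.00629). Both rises, and both falls from 18 h to 72 h, were called in all 18 alternatives.

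By 72 h the difference from control was 0.35 ± 0.31 on the log2 scale for Gsdmc2 (interval -0.34 to 1.03, edgeR adjusted p = 0.927) and -0.05 ± 0.33 for Gsdmc4 (interval -0.79 to 0.69, edgeR adjusted p = 0.999). From 18 h to 72 h, Gsdmc2 fell by 1.73 ± 0.31 (edgeR adjusted p = 0.00588) and Gsdmc4 by 2.28 ± 0.34 (edgeR adjusted p = 0.00396). These paralogs are similar in sequence. Of the 100-base words in their transcripts, 28.4% for Gsdmc2 and 20.2% for Gsdmc4 occurred in other genes, above all in Gsdmc3, so how reads were divided between them is uncertain. Gsdmc3 had 41.1, 59.8 and 199.7 normalised counts in control and 309.6, 403 and 217 in 18h-αGal mice, and its difference of 1.73 ± 0.53 on the log2 scale missed the threshold (edgeR adjusted p = 0.0797).

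Gsdmd, the gasdermin cut by caspase-1 and caspase-11, lies on the plus strand of chromosome 15 (chr15:75862144-75867408, ENSMUSG00000022575). Counts were 991, 802 and 1928 in control, 685, 739 and 1360.5 in 18h-αGal and 770.3, 1099 and 554 in 72h-αGal mice, and all groups overlapped. The log2 fold change was -0.40 ± 0.41 at 18 h (edgeR adjusted p = 0.654) and -0.59 ± 0.41 at 72 h (edgeR adjusted p = 0.893). The interval at 18 h, -1.35 to 0.54, left changes in either direction possible, and without control replicate 3 the value was 0.042. Gsdmd shared 4.36% of its words with Gm62577, a lncRNA on the opposite strand.

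Casp4 encodes caspase-11, the mouse sensor of cytosolic lipopolysaccharide that cuts GSDMD, and lies on the plus strand of chromosome 9 (chr9:5308849-5336791, ENSMUSG00000033538). It had 375, 304 and 654 normalised counts in control, 278, 219 and 217 in 18h-αGal and 542, 438 and 423 in 72h-αGal mice. All 18h-αGal mice were below all others, with control replicate 2 the closest, while control and 72h-αGal mice overlapped. The log2 fold change at 18 h was -0.87 ± 0.26 and was not called (edgeR adjusted p = 0.0613). The call was made by DESeq2 (-0.88, adjusted p = 0.0270), by edgeR with no filter on low counts (-0.86, adjusted p = 0.0134) and without control replicate 2 (-1.08, adjusted p = 0.0317), and the adjusted p ranged from 0.0134 to 0.196 over 18 alternatives. Casp4 then rose from 18 h to 72 h by 0.98 ± 0.26 on the log2 scale (edgeR adjusted p = 0.0262). That call was lost without 18h-αGal replicate 2 (0.92) or 3 (0.91), or without 72h-αGal replicate 1 (0.86), 2 (1.03) or 3 (1.04), with edgeR adjusted p values of 0.0525 to 0.106. Against control, the 72 h value was 0.11 ± 0.26 (edgeR adjusted p = 0.983).

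Casp1, the caspase of the canonical inflammasome, is next to Casp4 on the same strand (chr9:5298517-5307281, ENSMUSG00000025888). Counts were 1907, 1728 and 2423 in control, 2081, 2445 and 2682 in 18h-αGal and 1684, 1804 and 1408 in 72h-αGal mice. Control mice overlapped with both αGalCer groups, whereas every 72h-αGal mouse was below every 18h-αGal mouse. The log2 fold change was 0.26 ± 0.14 at 18 h (interval -0.05 to 0.57, edgeR adjusted p = 0.330) and -0.29 ± 0.14 at 72 h (interval -0.60 to 0.02, edgeR adjusted p = 0.856). Casp1 fell from 18 h to 72 h by 0.55 ± 0.14 on the log2 scale (edgeR adjusted p = 0.0248). This was lost under the replicate block (-0.54, adjusted p = 0.0524) and without 18h-αGal replicate 2 (-0.53) or 3 (-0.47) or 72h-αGal replicate 1 (-0.57) or 3 (-0.46), with edgeR adjusted p values of 0.0746 to 0.134 for the latter. Casp1 and Casp4, although adjacent, thus moved in opposite directions between 18 h and 72 h.

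Nlrp6, an epithelial inflammasome sensor, lies on the plus strand of chromosome 7 (chr7:140920902-140929192, ENSMUSG00000038745). It had 10431, 9650.4 and 13679.5 normalised counts in control, 11088, 12301 and 14692 in 18h-αGal and 10296, 9816 and 7852 in 72h-αGal mice. Control overlapped with both αGalCer groups, and those groups did not overlap with each other. Log2 fold changes were 0.18 ± 0.15 at 18 h (edgeR adjusted p = 0.533), -0.26 ± 0.15 at 72 h (edgeR adjusted p = 0.876) and -0.44 ± 0.15 from 18 h to 72 h (edgeR adjusted p = 0.0719). The last was called with no filter on low counts (-0.43, adjusted p = 0.0162) and without control replicate 3 (-0.43, edgeR adjusted p = 0.0259). Among pairs of the 10 genes, Casp1 and Nlrp6 had the smallest root mean square difference, 0.070, between their centred log2 CPM over 9 libraries. They were also the genes that varied least over the libraries (SD 0.29 and 0.27), which keeps this difference small.

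Aim2, a sensor of cytosolic double-stranded DNA, lies on the plus strand of chromosome 1 (chr1:173349547-173466040, ENSMUSG00000037860). Its normalised counts were 38.8, 38.0 and 14.3 in control, 42.9, 19.8 and 33.1 in 18h-αGal and 6.95, 10.1 and 55.2 in 72h-αGal mice, from 6 to 75 raw counts. All groups overlapped. The log2 fold change was 0.05 ± 0.78 at 18 h (edgeR adjusted p = 0.982) and -0.32 ± 0.78 at 72 h (edgeR adjusted p = 0.983), and intervals of -1.60 to 1.70 and -1.98 to 1.34 leave large changes in either direction possible. The highest library, 72h-αGal replicate 3, also had the highest lymphocyte (16.8 CPM) and myeloid (60.6 CPM) marker sums. In this library Zbtb16 (259 normalised counts) and Cd68 (751) were the highest markers of the 2 lists. Other lymphocyte markers were not raised with them: Ptprc, at 4.42, was lowest of its group, and Cd8a, Trac and Gzmb were at 0. Other myeloid markers were mixed in this library. Itgax (43.4) and Cd14 (202) were highest of the 72h-αGal group, Lyz2 (6.62) and Cx3cr1 (0.74) were lowest, and Adgre1, S100a8 and Tyrobp were at 0. Itgam, Csf1r and Fcer1g lay between the other mice of the group. The part of such cells in the Aim2 count was not tested.

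Among other genes of these pathways, 87 were listed, 82 were in the files and 77 were tested. At 18 h, 13 of 77 were called higher by edgeR, against 3.27% of all genes, and 0 lower, with a median log2 fold change of 0.25, against -0.03 for all genes. Without control replicate 3 the count was 23. At 72 h, 0 were called by edgeR and by DESeq2. At an unadjusted p under 0.05 in edgeR there were 7 of 77, against 1125 of all 18933 genes. From 18 h to 72 h, 25 of 77 were called lower, against 6.04% of all genes, and 0 higher, and this count was 12 without 72h-αGal replicate 3. Of the 13 genes called at 18 h, 5 were guanylate-binding or immunity-related GTPases and 3 were IRF or STAT transcription factors. Inflammasome sensors, other gasdermins, necroptosis initiators and the membrane repair machinery had 0 calls each at 18 h. At an unadjusted p under 0.05 in edgeR they had 3 of 10, 2 of 5, 3 of 9 and 7 of 14 tested genes, respectively. Of all 18933 genes, 3947 had such a p at 18 h.

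**Figure D4:**
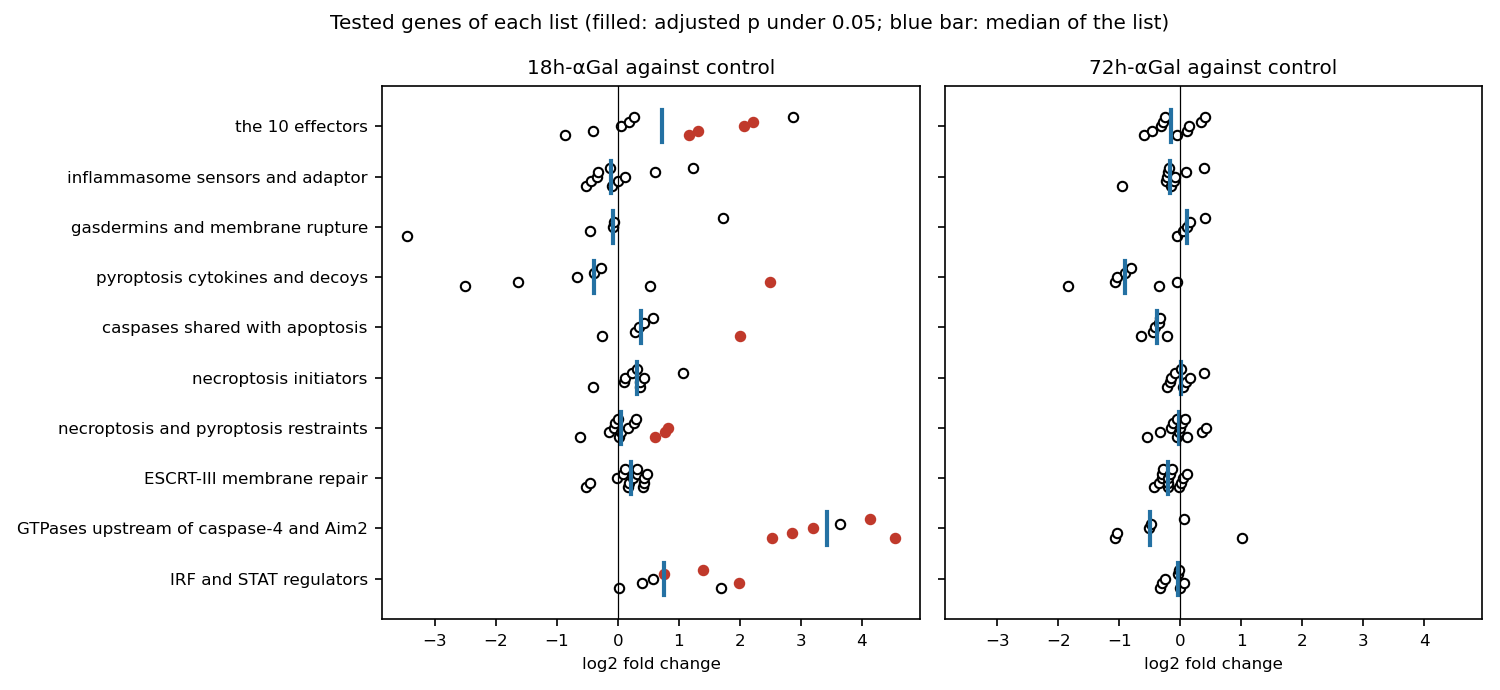
Log2 fold changes at 18 h (left) and 72 h (right) against control of the tested genes of each pathway list and of the 10 effectors. Each point is 1 gene, filled points passed the edgeR test, and blue bars are list medians. At 18 h the GTPases lie farthest to the right (5 of 6 called higher, against 3.27% of all genes, median 3.43), and at 72 h no point is filled.

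Of the 10 tested inflammasome sensors and adaptors, 0 were called in any comparison. Of all genes, 5.96% were called at 18 h, 0.0264% at 72 h and 10.2% from 18 h to 72 h. The median of the sensors and adaptors at 18 h was -0.11. Pycard, the adaptor ASC, had log2 fold changes of 0.12 at 18 h (edgeR adjusted p = 0.550) and -0.20 at 72 h (edgeR adjusted p = 0.859). Nlrc4, which detects flagellin and secretion systems through NAIP proteins, was at -0.43 at 18 h (edgeR adjusted p = 0.0644). Nlrp3 had at most 4.03 normalised counts in any library and was not tested. Among 5 other gasdermin and rupture genes tested, 0 were called. Gsdme, a pore-forming gasdermin, had a log2 fold change of -0.06 at 18 h (edgeR adjusted p = 0.927), and Ninj1, which ruptures the membrane after pore formation, of -0.45 (edgeR adjusted p = 0.262).

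Il18bp, which neutralises interleukin-18, was the only called gene among 7 cytokines and decoys, against 5.96% of all genes called at 18 h. It had 321, 322 and 659 normalised counts in control, 1838, 2822 and 2493 in 18h-αGal and 401, 373 and 434 in 72h-αGal mice. The 18h-αGal mice were above all others, with a log2 fold change of 2.50 ± 0.26 (edgeR adjusted p = 0.000257) and it fell by 2.56 ± 0.26 on the log2 scale to 72 h (edgeR adjusted p = 0.000162). Il18, the cytokine that caspase-1 matures, had log2 fold changes of -0.39 ± 0.35 at 18 h (edgeR adjusted p = 0.586) and -0.90 ± 0.35 at 72 h (edgeR adjusted p = 0.826). Il1b was not analysed here.

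Casp8, the caspase that holds necroptosis in check, belonged to a list of 6 caspases shared with apoptosis, whose median log2 fold change was 0.39 at 18 h, -0.38 at 72 h and -0.84 from 18 h to 72 h. It had 1204, 1206 and 1479 normalised counts in control, 1381, 1918 and 1889 in 18h-αGal and 1026, 1154 and 852 in 72h-αGal mice. Control and 18h-αGal mice overlapped, and every 72h-αGal mouse was below all others. At 18 h the log2 fold change of 0.42 ± 0.16 was not called (edgeR adjusted p = 0.127). Casp8 fell from 18 h to 72 h by 0.77 ± 0.16 on the log2 scale (edgeR adjusted p = 0.00684).

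Necroptosis initiators had 0 of 9 genes called at 18 h, against 5.96% of all genes, and a median of 0.32. Ripk1, the kinase that recruits RIPK3, was at 0.23 ± 0.14 at 18 h and 0.10 ± 0.14 at 72 h (edgeR adjusted p = 0.387 and 0.964). The receptors Tnfrsf1a (-0.54), Tlr3 (-0.64) and Fas (-1.23) were lower at 72 h than at 18 h, with edgeR adjusted p values of 0.0109, 0.0200 and 0.0415. Of 13 genes that restrain either pathway, 3 rose at 18 h, against 3.27% of all genes called higher. These 3 were lower again at 72 h than at 18 h, against 6.04% of all genes called lower. Rnf31 and Sharpin, subunits of the linear ubiquitin ligase, had log2 fold changes of 0.77 ± 0.16 (edgeR adjusted p = 0.0107) and 0.62 ± 0.12 (edgeR adjusted p = 0.00900). Adar, an RNA editing enzyme whose activity limits the RNA ligands of ZBP1, was at 0.83 ± 0.16 (edgeR adjusted p = 0.00705). Their changes from 18 h to 72 h were -0.82, -0.51 and -0.80, with edgeR adjusted p values of 0.00518, 0.0162 and 0.00585. Cflar, the caspase-8 regulator c-FLIP, was at -0.06 ± 0.15 at 18 h (edgeR adjusted p = 0.880).

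Of all genes, 5.96% were called at 18 h, with 3.27% called higher, and 6.04% were called lower from 18 h to 72 h. ESCRT-III genes, whose products repair membranes pierced by gasdermins or MLKL, had 0 of 14 calls at 18 h. They had 5 of 14 lower from 18 h to 72 h. These 5 were Chmp2b (-0.74), Chmp4b (-0.63), Chmp5 (-0.71), Chmp7 (-0.49) and Pdcd6ip (-0.45), with edgeR adjusted p values of 0.0137 to 0.0354. GTPases that act upstream of caspase-11 and AIM2 had 5 of 6 genes called higher at 18 h, over a log2 range of 2.52 to 4.55, and 6 of 6 lower from 18 h to 72 h. Their summed level was 80.8, 80.4 and 156 CPM in control, 714, 860 and 689 CPM in 18h-αGal and 86.3, 80.4 and 76.1 CPM in 72h-αGal mice, with control replicate 3 again the highest control. IRF and STAT transcription factors had 3 of 7 called higher at 18 h, with all 7 estimates from 0.01 to 1.99, and 4 of 7 lower from 18 h to 72 h. These regulators summed to 393, 456 and 578 CPM in control, 924, 964 and 984 CPM in 18h-αGal and 496, 502 and 405 CPM in 72h-αGal mice.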

How the data were processed

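RNA of 9 libraries (3 mice per group) was sequenced by the authors as ribodepleted directional libraries with 100 bp reads. The submitters' processing notes name HISAT2, featureCounts of Subread, DESeq2 1.42.0 and the build GRCm38, whereas the study's methods name a later build. Identifiers in the files fitted the earlier one, which was used for coordinates. Strand setting and annotation release are not given in the sources used here. The authors deposited raw counts per gene and a normalised signal, which equals the count divided by a size factor per library and is called normalised count here.

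Of 29288 identifiers, 28480 matched a GENCODE symbol and held 98.4% of counts. Counts were tested with edgeR 4.0.16 in R 4.3.3: genes kept by its default filter on low counts (18933), TMM factors, robust quasi-likelihood fit over the 3 groups, Benjamini-Hochberg adjustment over all tested genes, and a call at adjusted p under 0.05. The fit was tested on simulated data. Fold changes, SEs and intervals (95%) are from this fit. Its quasi-likelihood F test judged each group difference against the spread between these mice and gave the p-values. CPM and levels per length use total counts and the canonical transcript length. Replicates of a group differed by more than sampling noise (chi-square per degree of freedom 13.1 to 42.0). Shared sequence was counted as 100-base words of GENCODE transcripts.

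All 10 genes were named in each comparison. Of the pathway lists (inflammasome sensors and adaptor, gasdermins and membrane rupture, cytokines and decoys, caspases, necroptosis initiators, restraints, ESCRT-III, GTPases, IRF and STAT), called genes and 11 preset genes were named, with counts and ranges for the last 2 lists. For each of the 10 genes, the 2 genes with the closest profile (root mean square difference of centred log2 CPM) were also named. Some genes that these rules name are not reported here. Genes and lists were chosen with earlier results of these data known. Alternatives were DESeq2 1.42.0, RLE factors, library totals, other filters, no robust moderation, 6 libraries only, a replicate block, limma 3.58.1 on log2 normalised counts, and leaving out each library.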

Additional observations from a re-analysis of the deposited data

Results flagged for a closer look

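The 18h-αGal and 72h-αGal groups, both taken against the same control mice, differed from each other in 7 of the 10 genes. The control group cancels from this difference, so it was tested as 72h-αGal against 18h-αGal mice (n = 3 each). PBS mice were sampled at 18 h only, so a change in the αGalCer effect and the sampling time cannot be told apart here. The log2 difference was -0.55 for Casp1, 0.98 for Casp4, -1.73 for Gsdmc2, -2.28 for Gsdmc4, -0.91 for Ripk3, -1.03 for Mlkl and -3.33 for Zbp1. The edgeR adjusted p values were 0.0248, 0.0262, 0.00588, 0.00396, 0.00164, 0.0119 and 0.0447 in the same order. Groups did not overlap for 8 of the 10 genes, these 7 among them. The 7 genes were picked by this same test, so their separation is no further support. Of all genes tested, 10.2% were called in this comparison and 32.8% did not overlap. The count of 7 was 3 to 8 when single libraries were left out: it was 4 without 18h-αGal replicate 2 or 72h-αGal replicate 1, and 3 without 18h-αGal replicate 3 or 72h-αGal replicate 3. For Casp1, Casp4 and Zbp1 the difference from control passed the threshold at neither time.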

How the results depend on the processing

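The count of the 10 genes called at 18 h was 3 to 6 over 18 alternatives, and that at 72 h was 0 in every one. Leaving out single libraries gave 3 to 8 calls between 72 h and 18 h, with 4 without 18h-αGal replicate 2 or 72h-αGal replicate 1 and 3 without 18h-αGal replicate 3 or 72h-αGal replicate 3. Other pathway genes numbered 9 to 23 at 18 h (23 without control replicate 3) and 12 to 29 between 72 h and 18 h (12 without 72h-αGal replicate 3). With the replicate block the 10 genes gave 4, 0 and 5 calls and the other pathway genes 13, 0 and 20 in the 3 comparisons, and Casp1 (-0.54) and Zbp1 (-3.27) lost their call between 72 h and 18 h. The numbers did not pair the mice: 1 of 9 same-numbered pairs correlated above 0.1, and 3 of 9 libraries correlated best with their own number.

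Estimates that changed sign were all of genes not called in that comparison. At 18 h these were Gsdmd without control replicate 3 (0.042; -0.77 to 0.042 over the left-out libraries) and Aim2 with library totals (-0.0053), the replicate block (-0.10), or without control replicate 3 (-0.26) or 18h-αGal replicate 1 (-0.24; -0.26 to 0.30). At 72 h they were Casp4 without control replicate 2 (-0.10) or 72h-αGal replicate 1 (-0.0076; up to 0.47), Gsdmc4 without control replicate 3 (0.16) or 72h-αGal replicate 3 (0.25; -0.26 to 0.25), Aim2 without 72h-αGal replicate 1 (0.11) or 2 (0.045; -1.83 to 0.11) and Zbp1 without control replicate 3 (-0.91 to 0.58). Between 72 h and 18 h they were Gsdmd without 18h-αGal replicate 3 (0.19) or 72h-αGal replicate 3 (0.022; -0.47 to 0.19) and Aim2 without 72h-αGal replicate 1 (0.057; -1.89 to 0.057). The causes were not tested. Aim2 had the lowest counts of the 10 genes, with 6 to 75 raw counts per library.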

Other observations

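For the 10 genes, tested genes with the closest profile over the 9 libraries were found by the root mean square (RMS) difference of centred log2 CPM. These are descriptions of 9 libraries that share depth and cell composition. The RMS difference is small where a gene varies little, and the SD of the 10 genes ran from 0.27 (Nlrp6) to 1.86 (Zbp1). The values thus do not rank likeness between genes. Zbp1 was closest to Usp18, an interferon-induced protease (RMS 0.38), and to Gm12250 (0.41), and its own SD was 1.86. Gsdmc2 and Gsdmc4 were both closest to Ltf, which encodes lactoferrin (0.34 and 0.26), and AW112010 (0.34) was next for Gsdmc2. Ripk3 was closest to Pirt (0.16) and Parp11 (0.16), and Mlkl was close to Manf (0.19).

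Casp1 was closest to 4833439L19Rik (0.039) and Rbm47 (0.053), Nlrp6 to Rab6a (0.044) and Txnrd1 (0.049), Gsdmd to Kifc3 (0.10) and Mertk (0.15), and Casp4 to Eepd1 (0.13) and Dnase1l1 (0.17). Aim2, at low counts, had no close profile, and the nearest were Itpa-ps1 (0.44) and Ddr2 (0.46).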
